A study of Mus musculus with 9 samples.

Results

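The aquaporins described here are 7 genes, Aqp1, Aqp3, Aqp4, Aqp5, Aqp8, Aqp9 and Aqp11, of 18193 genes with a probeset of their own on the arrays. All probesets whose only annotated gene symbol is one of the 7 were taken, which gave 15 of 45037 probesets. The family was chosen by the log2 differences of Aqp5, which stood high in both transfected lines against control cells, so its values against control are given as a description and were not tested. Aqp3 had 4 probesets, Aqp4 and Aqp11 had 3 each, Aqp9 had 2, and Aqp1, Aqp5 and Aqp8 had 1 each.

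RNA levels were measured on Affymetrix Mouse Genome arrays in 3 lines of Balb/c-3T3, an established line of mouse embryo fibroblasts. One line carried pMvSrc, which expresses the viral tyrosine kinase v-Src, an activator of STAT3 and of other pathways. Another carried pRc/CMV-STAT3C, which expresses STAT3-C, a constitutively active form of the transcription factor STAT3, from the CMV promoter, and the control line was unmodified, with no vector-only line among the arrays. Each line has 3 arrays, from 3 consecutive passages with cells of several dishes pooled at each passage. All lines were grown in the same medium with bovine calf serum. The transfected cells of each kind are 1 stable line, so the spread between arrays is that between passages of a line, and a difference between lines cannot be told apart from one that arose when a line was established.

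The values are log2 intensities, on which a difference of 1 is a doubling. The array medians lay between 6.27 and 6.39 and the lower quartiles between 5.07 and 5.15, and arrays of the same line correlated at 0.99 to 0.995 over all probesets. The 12 fibroblast markers averaged 9.49 to 9.93 on the v-Src arrays, 9.71 to 9.82 on the STAT3-C arrays and 11.09 to 11.29 on the control arrays, with 6 called lower and 1 higher in v-Src cells, and 7 lower and 0 higher in STAT3-C cells. With 1 probeset a gene, 10.4% of all genes were called lower in v-Src cells and 10.3% in STAT3-C cells. A probeset was called higher or lower where limma gave a Benjamini-Hochberg adjusted p under 0.05, over all 45037 probesets, together with a fold of at least 1.5, which is 0.58 on the log2 scale. A level is placed only against the quartiles of its array, since brightness also depends on the probeset and is no measure of how much RNA 1 gene has beside another.

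Aquaporins are membrane channels that assemble as tetramers, each subunit with a pore of its own, and let water cross the membrane along an osmotic gradient. Aqp1, Aqp4 and Aqp5 are mainly water channels, Aqp3 and Aqp9 also pass glycerol and other small solutes, and Aqp8 passes water, ammonia and hydrogen peroxide. Aqp11 is a distant member of the family found largely in membranes inside the cell. In tissues, Aqp5 is best known from the apical membrane of secretory cells in salivary and lacrimal glands and from type I cells of the lung alveolus.

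Aqp5, read by a single probeset, was the member with by far the widest differences between lines. It measured 10.44, 9.83 and 10.16 on v-Src arrays 1, 5 and 6, and 11.96, 11.87 and 11.86 on STAT3-C arrays 1, 2 and 3, against 5.29, 5.60 and 5.51 on control arrays 1, 2 and 3. The 3 groups did not overlap at any point, with STAT3-C cells highest, v-Src cells between and control cells lowest. On every array of both transfected lines Aqp5 lay above the upper quartile of the array, while on all 3 control arrays it lay under the median and above the lower quartile.

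The mean level of Aqp5 was 10.14 ± 0.31 in v-Src cells, 11.89 ± 0.06 in STAT3-C cells and 5.47 ± 0.16 in control cells (SD, n = 3 each). Against control, the log2 difference was 4.68 in v-Src cells (SE 0.16), a 25.6-fold ratio of intensities, and 6.43 in STAT3-C cells (SE 0.11), an 85.9-fold ratio. Of all probesets, 28 had a larger positive log2 difference from control in v-Src cells and 1 had a larger one in STAT3-C cells. Both comparisons share the control arrays, so they are not independent of each other. The arrays measure RNA of whole cultures, in which more cells with Aqp5 and more Aqp5 RNA in each cell cannot be told apart.

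The direct comparison of the transfected lines did not use the control arrays. Aqp5 was lower in v-Src cells than in STAT3-C cells, with a log2 difference of -1.75 (SE 0.15, 95% interval -2.10 to -1.40, limma adjusted p = 0.000629), so that STAT3-C cells had 3.36 times the intensity of v-Src cells. In this comparison 5.33% of all probesets were called lower in v-Src cells and 4.99% were called higher. Of the 2399 probesets called lower, 126 lay further below 0 than Aqp5. With 3 arrays a line, the smallest p that exact permutation allows is 0.1, and no such test was run.

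**Figure D1:**
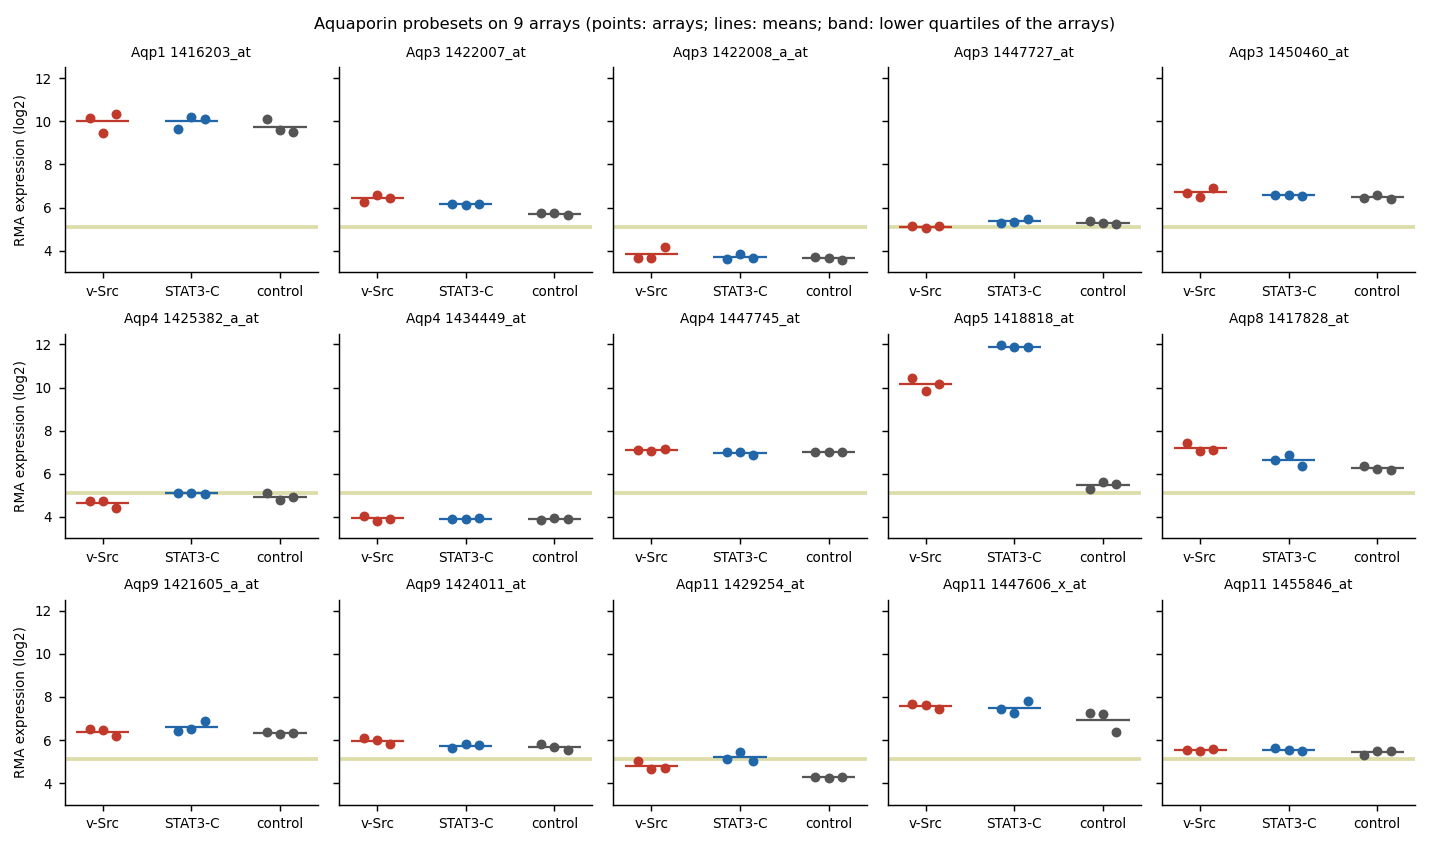
Log2 intensity of the 15 aquaporin probesets on each array, with v-Src, STAT3-C and control arrays as points, the mean of each line as a horizontal line, and the lower quartiles of the arrays as a band. Aqp5 lies between 9.83 and 11.96 in the transfected lines and between 5.29 and 5.60 in control cells, while the values of Aqp1 overlap in all 3 lines.

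Because the level of Aqp5 differed so widely between lines, the stretch of DNA before its start is shown. The sequence is that of RefSeq for the mouse assembly GRCm38.p6, chr15:99590778-99591027 on the plus strand, the 250 bases that end just before the annotated start of the gene. Capitals mark the motifs CACGTG and GGGCGG.
Aqp5: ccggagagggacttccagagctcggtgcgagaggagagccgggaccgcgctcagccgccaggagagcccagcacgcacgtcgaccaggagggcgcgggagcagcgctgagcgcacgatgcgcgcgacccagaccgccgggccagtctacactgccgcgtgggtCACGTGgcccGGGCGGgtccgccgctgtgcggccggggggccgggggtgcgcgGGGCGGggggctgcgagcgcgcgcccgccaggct

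The 250 bases were 78.4% G and C, against a median of 52.4% over 32841 mouse promoter windows of that length, and 98.1% of windows had a lower share. They held 38 CpG dinucleotides, against a median of 6. The letters TTCNNNGAA, to which STAT proteins including STAT3 bind, and the same letters with 4 in place of 3 bases between TTC and GAA were searched on both strands. Neither was in the Aqp5 window, nor in the windows of Aqp1, Aqp3, Aqp8, Aqp9 or Aqp11, whereas 7.02% of all windows held TTCNNNGAA and 5.85% held the wider-spaced form. These letters were searched only in this window, and their absence says nothing of STAT3 binding elsewhere or at looser sites. The study defined STAT3 sites more loosely, as TT and AA with a short variable gap, over a longer stretch before the Necdin gene. The site it reported there has neither of the forms searched here.

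After the Aqp5 window had been read, 3 more motifs were searched on both strands. GGGCGG, the core of a GC box, was present 2 times in Aqp5, 77 and 34 bases before the start, and 1 time each in Aqp1 and Aqp3, against 32.7% of all windows with at least 1 copy. CACGTG, an E-box, was present 1 time each in Aqp5 and Aqp8, against 6.02% of all windows. TATAAA was present in Aqp3 and in no other member searched, against 12.4% of all windows. Aqp4 was not searched.

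Among the 14 probesets of the other 6 members, 2 were called higher in v-Src cells than in control cells and 0 lower, against 8.75% of all probesets called higher and 8.10% called lower. The share called higher was 14.3%. In STAT3-C cells 1 of the 14 was called higher and 0 lower, a share of 7.14%, against 9.68% and 8.58% of all probesets. Between v-Src and STAT3-C cells 0 of the 14 were called in either direction, with 10.3% of all probesets called one way or the other, and 2 of the 14 passed the adjusted p but not the fold, where 20.3% of all probesets passed the adjusted p. The counts for the other members were thus near those of the arrays as a whole.

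The median log2 difference of these 14 probesets was 0.21 in v-Src cells against control, beside 0.03 over all probesets, and 0.13 in STAT3-C cells against control, beside 0.02. In v-Src cells 6 of the 14 lay wholly above the control arrays and 2 wholly below, where 24.1% and 19.9% of all probesets did so. In STAT3-C cells 3 lay wholly above and 1 wholly below, where 24.1% and 19.2% did so. Between the transfected lines 4 lay wholly higher in v-Src cells and 2 wholly lower, where 19.1% and 18.7% did so.

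**Figure D2:**
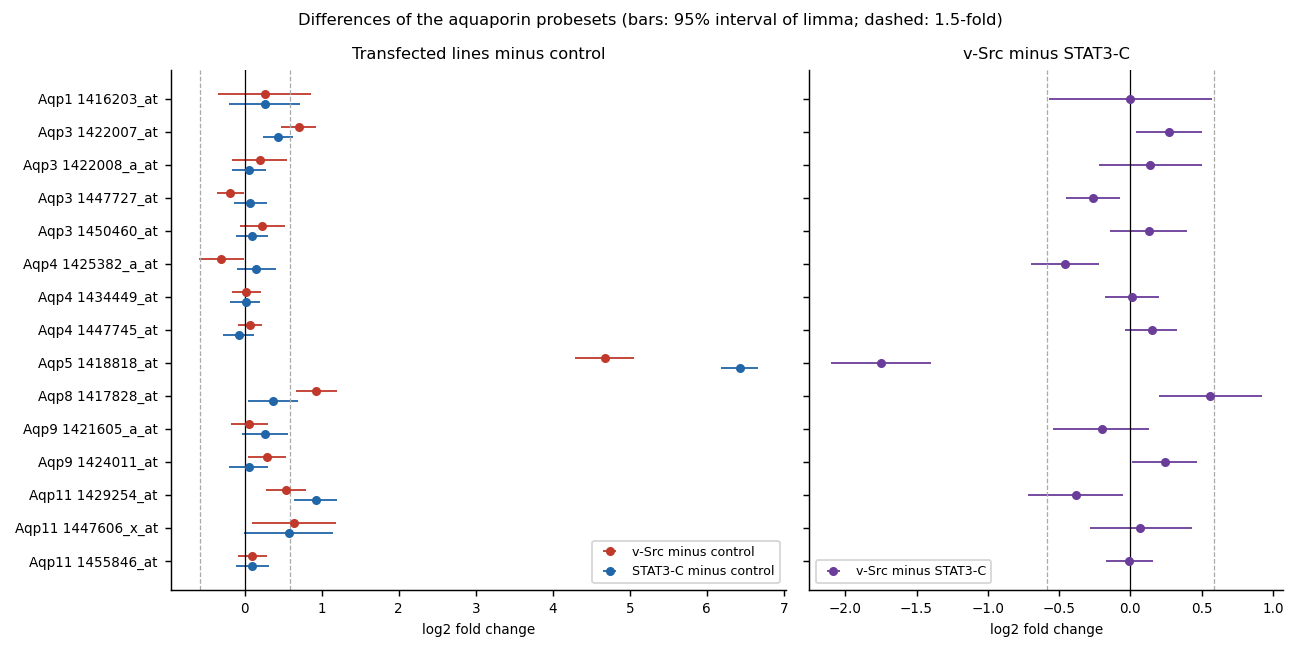
Log2 difference with its 95% interval for each aquaporin probeset in v-Src minus control, STAT3-C minus control and v-Src minus STAT3-C. Aqp5 lies at 4.68, 6.43 and -1.75, and the other probesets lie between -0.46 and 0.93.

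Among the water channels, Aqp1, the channel of red cells, capillary endothelium and the kidney proximal tubule, was bright in every line. It measured 10.17, 9.47 and 10.35 on the v-Src arrays and 9.66, 10.21 and 10.12 on the STAT3-C arrays, against 10.12, 9.60 and 9.49 on the control arrays. All 9 values lay above the upper quartile of their array and the 3 lines overlapped. The log2 difference from control was 0.26 in v-Src cells (95% interval -0.35 to 0.86, adjusted p = 0.499) and 0.26 in STAT3-C cells (-0.20 to 0.72, adjusted p = 0.377), and that between v-Src and STAT3-C cells was 0.00 (-0.57 to 0.57, adjusted p = 0.996). The intervals against control reach past the fold threshold on the higher side, so a higher level in either transfected line was not resolved. Of 8 endothelial and 5 erythroid markers measured, 0 were called in either line against control. Of all genes, 9.54% were called higher and 10.4% lower in v-Src cells, and 11.9% and 10.3% in STAT3-C cells.

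Aqp4, the main water channel of astrocytes, was near the bottom of the arrays by 2 of its 3 probesets. With 1425382_a_at it measured 4.72, 4.76 and 4.43 on the v-Src arrays and 5.09, 5.13 and 5.06 on the STAT3-C arrays, against 5.13, 4.80 and 4.90 on the control arrays. The v-Src arrays lay below both other lines, which overlapped each other. The direct log2 difference was -0.46 (SE 0.10, adjusted p = 0.0202), which passed the adjusted p but not the fold, while v-Src minus control was -0.31 (adjusted p = 0.114) and STAT3-C minus control was 0.15 (adjusted p = 0.35). With 1434449_at all 9 arrays lay below the lower quartile, and with 1447745_at all 9 lay above the median. Neither of those probesets was called, and their differences lay between -0.08 and 0.15 in the 3 comparisons. Of 6 astrocyte markers, 0 were called higher in either line, 1 was called lower in v-Src cells and 2 in STAT3-C cells, or 1 in STAT3-C cells when the probesets of a gene were averaged. Of all genes, 9.54% were called higher and 10.4% lower in v-Src cells, and 11.9% and 10.3% in STAT3-C cells.

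Among the channels that pass glycerol, Aqp3, known from kidney collecting duct and epidermis, was called higher in v-Src cells by 1 of its 4 probesets. With 1422007_at it measured 6.25, 6.57 and 6.44 on the v-Src arrays and 6.15, 6.12 and 6.18 on the STAT3-C arrays, against 5.75, 5.74 and 5.67 on the control arrays. The 3 lines did not overlap, with v-Src cells highest and control cells lowest. The log2 difference was 0.70 in v-Src cells (SE 0.10, adjusted p = 0.00192), and 0.43 in STAT3-C cells (SE 0.08, adjusted p = 0.00571), the second under the fold threshold. The direct difference of 0.27 (SE 0.10, 95% interval 0.04 to 0.50) had an adjusted p of 0.0949, so the order of the transfected lines was not resolved after adjustment.

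The other 3 probesets of Aqp3 were not called in any comparison. Against control, 1450460_at gave 0.23 in v-Src cells (adjusted p = 0.211) and 0.10 in STAT3-C cells (adjusted p = 0.458). With 1447727_at the values were 5.12, 5.04 and 5.14 on the v-Src arrays and 5.28, 5.35 and 5.47 on the STAT3-C arrays, against 5.36, 5.28 and 5.23 on the control arrays, so here the v-Src arrays were the lowest. Its difference in v-Src cells was -0.19 (adjusted p = 0.106). With 1422008_a_at all 9 arrays lay below the lower quartile. The probesets of Aqp3 thus differed in direction in v-Src cells, and the call rests on 1422007_at.

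Aqp9, a channel for water, glycerol and other neutral solutes found in hepatocytes and leukocytes, was not called by either probeset. With 1421605_a_at the log2 difference was 0.06 in v-Src cells (adjusted p = 0.721) and 0.26 in STAT3-C cells (adjusted p = 0.18). With 1424011_at it was 0.29 in v-Src cells (adjusted p = 0.0868) and 0.05 in STAT3-C cells (adjusted p = 0.771). Each probeset thus had its larger value in a different line, and neither difference passed the test. Of 7 hepatocyte markers measured, 0 were called higher in either line, and 1 was called lower in v-Src cells (Alb, -0.63, adjusted p = 0.00491). Of all genes, 10.4% were called lower in v-Src cells and 10.3% in STAT3-C cells. Of 8 macrophage and leukocyte markers 2 were called higher in v-Src cells and 3 in STAT3-C cells, where 9.54% and 11.9% of all genes were.

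Aqp8, known from colon, pancreas and liver, was called higher in v-Src cells. It measured 7.41, 7.05 and 7.12 on the v-Src arrays and 6.64, 6.88 and 6.36 on the STAT3-C arrays, against 6.38, 6.22 and 6.18 on the control arrays. The v-Src arrays lay above all others, and the lowest STAT3-C array lay within the control range. The log2 difference was 0.93 in v-Src cells (SE 0.11, 95% interval 0.66 to 1.20, adjusted p = 0.00107), and 0.37 in STAT3-C cells (SE 0.14, adjusted p = 0.0879). Between v-Src and STAT3-C cells it was 0.56 (SE 0.15, adjusted p = 0.0399), just under the fold threshold, and without STAT3-C array 2 it was 0.69 (adjusted p = 0.0297) and was called. Here v-Src cells had the higher level of the transfected lines, opposite to Aqp5.

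Aqp11 was called higher in STAT3-C cells by 1 of its 3 probesets. With 1429254_at it measured 5.04, 4.66 and 4.72 on the v-Src arrays and 5.11, 5.44 and 5.03 on the STAT3-C arrays, against 4.28, 4.24 and 4.29 on the control arrays. The control arrays lay below both transfected lines, which overlapped each other, and all 3 control and all 3 v-Src arrays lay below the lower quartile. The log2 difference was 0.92 in STAT3-C cells (SE 0.12, 95% interval 0.64 to 1.20, adjusted p = 0.000801), and 0.54 in v-Src cells (SE 0.11, adjusted p = 0.00976), under the fold threshold. Without v-Src array 5 the v-Src difference was 0.61 (adjusted p = 0.0121) and was called. The direct difference was -0.38 (SE 0.14, adjusted p = 0.107).

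The brightest probeset of Aqp11, 1447606_x_at, was not called. It measured 7.66, 7.63 and 7.46 on the v-Src arrays and 7.46, 7.24 and 7.83 on the STAT3-C arrays, against 7.26, 7.20 and 6.36 on the control arrays. Control array 3 was the lowest of the 9 and widened the error. The log2 difference was 0.64 in v-Src cells (SE 0.23, adjusted p = 0.0797) and 0.57 in STAT3-C cells (SE 0.25, adjusted p = 0.131). With 1455846_at the difference was 0.10 in each transfected line against control. None of the calls on Aqp3, Aqp8 and Aqp11 reached 2-fold.

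The remaining aquaporins on the arrays, Mip, Aqp2, Aqp6, Aqp7 and Aqp12, had 10 probesets, and 0 were called in any of the 3 comparisons. Their log2 differences lay between -0.08 and 0.49 in v-Src cells and between -0.05 and 0.34 in STAT3-C cells against control. The largest was Aqp6, an intracellular anion-permeable member, with 1420035_at at 6.17, 6.17 and 5.85 on the v-Src arrays and 5.86, 5.85 and 5.99 on the STAT3-C arrays, against 5.82, 5.41 and 5.48 on the control arrays. Its v-Src arrays lay above the control arrays by 0.49 (adjusted p = 0.0353), under the fold threshold. Mip, the water channel of the eye lens, differed by 0.30 in v-Src cells with 1435447_at (adjusted p = 0.036) and by 0.34 in STAT3-C cells with 1421039_at (adjusted p = 0.0245), also under it. Aqp12 differed by 0.34 in STAT3-C cells (adjusted p = 0.0499), and 0 probesets of Aqp2 or Aqp7 were called.

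Markers of tissues known for Aqp5 were read by 1 probeset a gene, and other probesets of some genes differed. Of 16 epithelial markers, such as Cdh1, Epcam and keratins, 0 were called in either line against control, and their mean level was 6.51 to 6.60 on the v-Src arrays and 6.48 to 6.62 on the STAT3-C arrays, against 6.34 to 6.51 on the control arrays. Of the 16, 3 lay below the lower quartile on all v-Src arrays, 2 on all STAT3-C arrays and 3 on all control arrays. Over all their probesets, Ehf, an epithelial transcription factor, was called higher in STAT3-C cells by 2 of 4 (up to 1.68) and lower in v-Src cells compared with STAT3-C cells by 3 of 4 (down to -1.81), and Krt14 by 1 of 3 (0.83, and -0.73 between the transfected lines). In v-Src cells against control 0 probesets of either gene were called. On 1 probeset a gene, 1 of the 16 was called between the transfected lines, Epcam, which was higher in v-Src cells (0.66), and 0 were lower. When the probesets of a gene were averaged, 1 epithelial marker was called higher in STAT3-C cells in place of 0. Of 7 salivary and lacrimal secretory markers, 0 were called, and 4 lay below the lower quartile on all 3 arrays of each line, with a mean level of 5.37 to 5.40, 5.20 to 5.36 and 5.28 to 5.37 in v-Src, STAT3-C and control cells. Of 8 alveolar type I markers, 1 was called higher and 2 lower in v-Src cells, and 1 higher and 3 lower in STAT3-C cells, with a mean level of 7.79 to 8.0 on the v-Src arrays and 7.80 to 7.93 on the STAT3-C arrays, against 8.12 to 8.20 on the control arrays. The marker that was higher was Emp2, by 1.42 in each transfected line. Those that were lower were Rtkn2 (-1.43 in v-Src and -1.02 in STAT3-C cells) and Cav1 (-1.11 and -0.95), with Pdpn also lower in STAT3-C cells (-1.69). Over all genes 9.54% were called higher and 10.4% lower in v-Src cells, and 11.9% and 10.3% in STAT3-C cells. Ager, by 1 of its 2 probesets, was also called higher in STAT3-C cells (0.62) and lower in v-Src cells compared with STAT3-C cells (-0.93). Of 7 alveolar type II markers measured, 1 was called lower in v-Src cells and 0 in STAT3-C cells, and 0 in either line when the probesets of a gene were averaged.

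The 8 macrophage and leukocyte markers averaged 6.55 to 6.76 on the v-Src arrays and 6.80 to 6.99 on the STAT3-C arrays, against 6.08 to 6.23 on the control arrays. Their mean thus had the order of Aqp5, but single markers differed from it. Cd14 averaged 10.26 in v-Src and 10.25 in STAT3-C cells, and Cd68 averaged 6.53 in v-Src and 6.56 in control cells. Csf1r averaged 7.31 in STAT3-C and 7.49 in control cells. Those called higher were Lyz2 (0.86 in v-Src and 1.95 in STAT3-C cells) and Cd14 (2.12 in each), with Cd68 also higher in STAT3-C cells (1.14). In each line 2 of the 8 lay below the lower quartile on all 3 arrays. Their part in the values of Aqp5 and Aqp9 was not tested.

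The genes whose values followed Aqp5 most closely were found by the root mean square difference over the 9 arrays after the control mean of each probeset was subtracted. They were Pmaip1 (0.51), a BH3-only cell death protein, Cyp1b1 (0.534), a cytochrome P450, Ahr (0.585), the aryl hydrocarbon receptor that induces Cyp1b1, Mtss1 (0.624), a regulator of actin and membrane shape, and Vldlr (0.632), a lipoprotein receptor. Pmaip1 was at 8.48, 8.80 and 8.97 on the v-Src arrays and 9.52, 9.90 and 9.53 on the STAT3-C arrays, against 3.79, 4.08 and 4.06 on the control arrays. Its differences of 4.77 and 5.67 stand beside 4.68 and 6.43 for Aqp5. Cyp1b1 gave 5.37 in v-Src and 6.49 in STAT3-C cells. On the control arrays Pmaip1 and Cyp1b1 lay below the lower quartile on all 3 and Mtss1 on 2, so the sizes of these differences, and the order of the genes made from them, rest on dim control values.

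Genes chosen for their closeness to Aqp5 share its order of lines through that choice. The mean of each was lower in v-Src cells than in STAT3-C cells, with log2 differences of -0.90 for Pmaip1, -1.11 for Cyp1b1, -0.64 for Ahr, -0.52 for Mtss1 and -0.33 for Vldlr, each smaller in size than the -1.75 of Aqp5. The correlation of each with Aqp5 over the 9 arrays was 0.977 to 0.988, a description in which the points share 3 lines. When genes were ranked by correlation instead, the first 5 were Aif1l, Scrn1, Klc1, Foxd1 and Epb41l4a (0.994 to 0.996), and 0 of the 5 were shared, so the list depends on the measure.

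**Figure D3:**
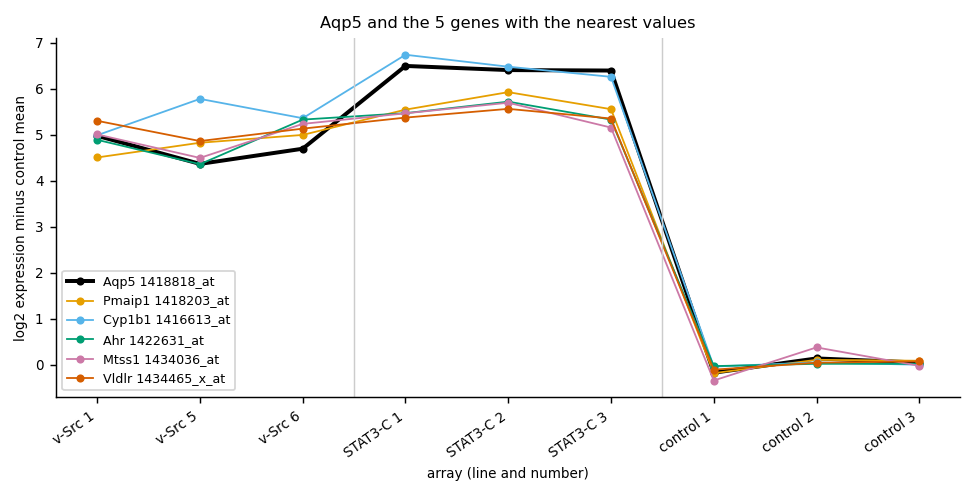
Log2 intensity minus the control mean on each of the 9 arrays for Aqp5 and the 5 genes with the smallest root mean square difference from it. All lie near 0 in control cells, with v-Src values around 4.68 to 5.37 on average and STAT3-C values around 5.43 to 6.49.

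The genes on either side of Aqp5 on chromosome 15 had far smaller differences than Aqp5. Aqp5 lies in a cluster with Aqp2 and Aqp6, and of the 3 nearest measured genes on each side, Bcdin3d, Faim2, Aqp2, Aqp6, Racgap1 and Asic1, 0 of 6 were called in v-Src cells and 1 of 6 in STAT3-C cells. On 1 probeset a gene, 9.54% of all genes were called higher and 10.4% lower in v-Src cells, and 11.9% and 10.3% in STAT3-C cells. The one called was Asic1, an acid-sensing ion channel, at 0.66 in STAT3-C cells (SE 0.16, adjusted p = 0.0157). Aqp2 differed by -0.06 in v-Src and -0.02 in STAT3-C cells.

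Aqp8 on chromosome 7 lay beside genes that were also called. On one side Lcmt1, a methyltransferase of protein phosphatase PP2A, was higher by 0.80 in v-Src cells (SE 0.12, adjusted p = 0.00278) and by 0.88 in STAT3-C cells (SE 0.14, adjusted p = 0.00185), and Arhgap17 by 0.87 (SE 0.13, adjusted p = 0.00304) and 0.59 (SE 0.11, adjusted p = 0.00549). The other 4 neighbours, Slc5a11, Hs3st4, 4930571K23Rik and Kdm8, were not called. Beside Aqp11, on the same chromosome, Myo7a, an unconventional myosin, was higher by 1.14 in v-Src and 0.72 in STAT3-C cells, and Aamdc was higher by 1.07 in STAT3-C cells with -0.21 in v-Src cells (adjusted p = 0.0763). Beside Aqp3 on chromosome 4, 0 of 6 neighbours were called in v-Src cells, where Aqp3 was called, and Nol6 and Ubap2 were lower in STAT3-C cells, at -0.74 for Nol6 and -0.77 for Ubap2. Called neighbours were not particular to called members. Beside Aqp9, which was not called, 2 of 6 were called higher in v-Src cells and 3 of 6 in STAT3-C cells. Beside Aqp1 and Aqp4, 0 of 6 were called in v-Src cells. In STAT3-C cells 1 was lower beside Aqp1 and 1 higher beside Aqp4. Over all genes 9.54% were called higher and 10.4% lower in v-Src cells, and 11.9% and 10.3% in STAT3-C cells.

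**Figure D4:**
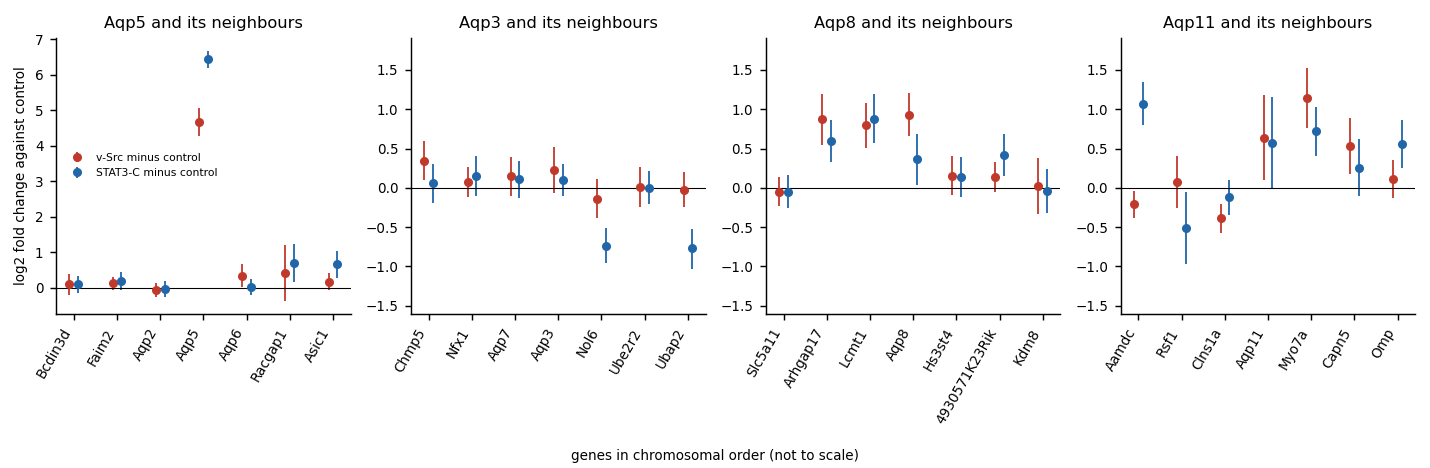
Log2 difference from control with its 95% interval for v-Src and STAT3-C cells, for Aqp5, Aqp3, Aqp8 and Aqp11 and the 3 nearest measured genes on each side, 1 probeset a gene, in chromosomal order and with a scale of its own for Aqp5. Aqp5 stands at 4.68 and 6.43 among neighbours between -0.06 and 0.69, and Aqp3 and Aqp11 are drawn by their brightest probesets, 1450460_at and 1447606_x_at, which were not called.

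Water follows solutes, and the volume of a cell is set by ion carriers and channels that work beside aquaporins. Of 22 ion transport and cell volume genes measured of 26 listed, 7 were called higher and 2 lower in v-Src cells, and 4 higher and 6 lower in STAT3-C cells. Over all genes 9.54% were called higher and 10.4% lower in v-Src cells, and 11.9% and 10.3% in STAT3-C cells. The medians of the list were -0.19 and -0.21 against control in the v-Src and STAT3-C lines, beside 0.02 and 0.04 over all genes, so in v-Src cells the median and the calls differed in sign. When the probesets of a gene were averaged, 2 were called higher in STAT3-C cells in place of 4.

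The calcium-activated potassium channel gene Kcnn4 had the largest difference of this list. It measured 11.04, 11.04 and 10.77 on the v-Src arrays and 10.37, 10.24 and 10.69 on the STAT3-C arrays, against 8.08, 8.08 and 7.91 on the control arrays. Both transfected lines lay far above control, by 2.93 in v-Src cells (SE 0.10, adjusted p = 5.56e-06) and 2.41 in STAT3-C cells (SE 0.13, adjusted p = 1.1e-05). Trpv4, a cation channel opened by hypotonic swelling, was higher by 0.88 in v-Src and 1.37 in STAT3-C cells. Clcn3, a chloride-proton exchanger of endosomes, was higher by 1.33 and 0.75 by its brightest probeset. Of its 5 probesets 4 were called higher in v-Src cells, but 1 in STAT3-C cells, where they ranged from -0.33 to 0.75. Slc4a4, a sodium bicarbonate cotransporter, was lower, at -1.22 and -0.74. Slc12a4, a potassium chloride cotransporter, was lower in STAT3-C cells, at -1.05 (adjusted p = 0.000383).

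Between the transfected lines 2 of the 22 genes were called, both higher in v-Src cells, where 4.84% of all genes were, and they are named after their values were seen. Lrrc8d, a subunit of the volume-regulated anion channel, differed by 1.20 (SE 0.11, adjusted p = 0.000862), and Slc4a2, an anion exchanger, by 0.96 (SE 0.16, adjusted p = 0.00654). When the probesets of a gene were averaged, 4 were called higher in place of 2.

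Genes that respond to hypertonic stress were called lower more often than higher. Of 8 measured of 9 listed, 0 were called higher and 5 lower in v-Src cells, and 1 higher and 4 lower in STAT3-C cells, with medians of -1.03 and -0.75. Over all genes 10.4% were called lower in v-Src cells and 10.3% in STAT3-C cells, with medians of 0.02 and 0.04. Slc5a3, the sodium myo-inositol cotransporter, measured 9.54, 9.40 and 10.32 on the v-Src arrays and 9.30, 9.33 and 8.91 on the STAT3-C arrays, against 11.36, 11.19 and 11.39 on the control arrays. All arrays of both transfected lines lay below the control arrays, at -1.56 in v-Src cells (SE 0.23, adjusted p = 0.00242) and -2.14 in STAT3-C cells (SE 0.13, adjusted p = 2.01e-05). Nfat5, the transcription factor of the hypertonic response, was lower by its brightest probeset, at -1.44 and -1.67, but of its 6 probesets 1 was called higher and 2 lower in v-Src cells, and 0 higher and 2 lower in STAT3-C cells.

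Slc6a6, a taurine transporter, was lower at -0.71 in v-Src and -0.80 in STAT3-C cells by its brightest probeset, but of its 4 probesets 1 was called lower in v-Src cells, where they ranged up to 0.56, and 2 in STAT3-C cells. Slc6a12, a betaine transporter, was lower in STAT3-C cells, at -0.77 (adjusted p = 0.00293). Between the transfected lines 2 of the 8 were called, both lower in v-Src cells, where 6.83% of all genes were. Sgk1, a kinase induced by serum and osmotic stress, was lower in v-Src cells than in STAT3-C cells by a log2 difference of -1.07 (SE 0.15, adjusted p = 0.00319), and Hspa1b, a heat shock protein, by -1.66 (SE 0.44, adjusted p = 0.0359). The list was mixed, with a median of 0.16 in this comparison, beside -0.03 over all genes. Among other probesets, 1 of 3 of Slc5a3 (up to 0.94), 1 of 6 of Nfat5 (up to 0.82) and 1 of 5 of Hspa4l (up to 0.77) were called higher in v-Src cells. When the probesets of a gene were averaged, 3 genes of the list were called lower in v-Src cells in place of 5, and 0 higher in STAT3-C cells in place of 1.

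Among 14 genes of glycerol and triglyceride handling measured of 16 listed, 4 were called higher and 1 lower in v-Src cells, and 3 higher and 1 lower in STAT3-C cells. Over all genes 9.54% were called higher and 10.4% lower in v-Src cells, and 11.9% and 10.3% in STAT3-C cells. The medians of the list were -0.01 and 0.16, beside 0.02 and 0.04 over all genes. Agpat2, an enzyme of triglyceride synthesis, was higher by 1.46 in v-Src cells (SE 0.09, adjusted p = 4.73e-05) and 1.91 in STAT3-C cells (SE 0.12, adjusted p = 2.59e-05), with Gpat3 at 1.12 and 1.11 and Dgat1 at 0.82 and 0.63. Plin2, which coats lipid droplets, measured 13.21, 12.87 and 12.68 on the v-Src arrays and 11.69, 12.03 and 11.39 on the STAT3-C arrays, against 10.98, 11.53 and 11.01 on the control arrays. Its v-Src arrays lay above all others and its STAT3-C arrays overlapped control, and v-Src cells exceeded STAT3-C cells by 1.21 (SE 0.19, adjusted p = 0.00515). Lpl, lipoprotein lipase, was at -0.97 in v-Src cells (adjusted p = 0.0689) and was lower in STAT3-C cells, at -1.03 (adjusted p = 0.0413), with a direct difference of 0.06. Of its 2 probesets, 1 was called lower in v-Src cells and 2 in STAT3-C cells.

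Of 11 genes of hydrogen peroxide production and removal measured of 16 listed, 0 were called higher in any comparison by their brightest probesets. When the probesets of a gene were averaged, 1 was called higher in STAT3-C cells. In v-Src cells 3 were lower than in control cells, the peroxiredoxins Prdx2 (-0.83) and Prdx3 (-0.85) and the superoxide dismutase Sod1 (-0.79), and in STAT3-C cells 1 was, Sod3 (-0.61). Between v-Src and STAT3-C cells 3 were lower in v-Src cells, Prdx3 (-0.62), the catalase gene Cat (-0.77) and Sod1 (-0.85, adjusted p = 0.00188). Over all genes 6.83% were called lower in that comparison. Against control, 9.54% of all genes were called higher and 10.4% lower in v-Src cells, and 11.9% and 10.3% in STAT3-C cells. Other probesets differed. Prdx4, also a peroxiredoxin, was called higher by 1 of its 4 in v-Src cells (up to 0.77) and by 2 in STAT3-C cells (up to 1.59). Between the transfected lines 2 of the 4 were called lower in v-Src cells (down to -1.41). In STAT3-C cells Prdx2 was called lower by 1 of 2 probesets (down to -0.90) and Sod1 by 1 of 5, and Sod3 ranged from -0.61 to 0.36.

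**Figure D5:**
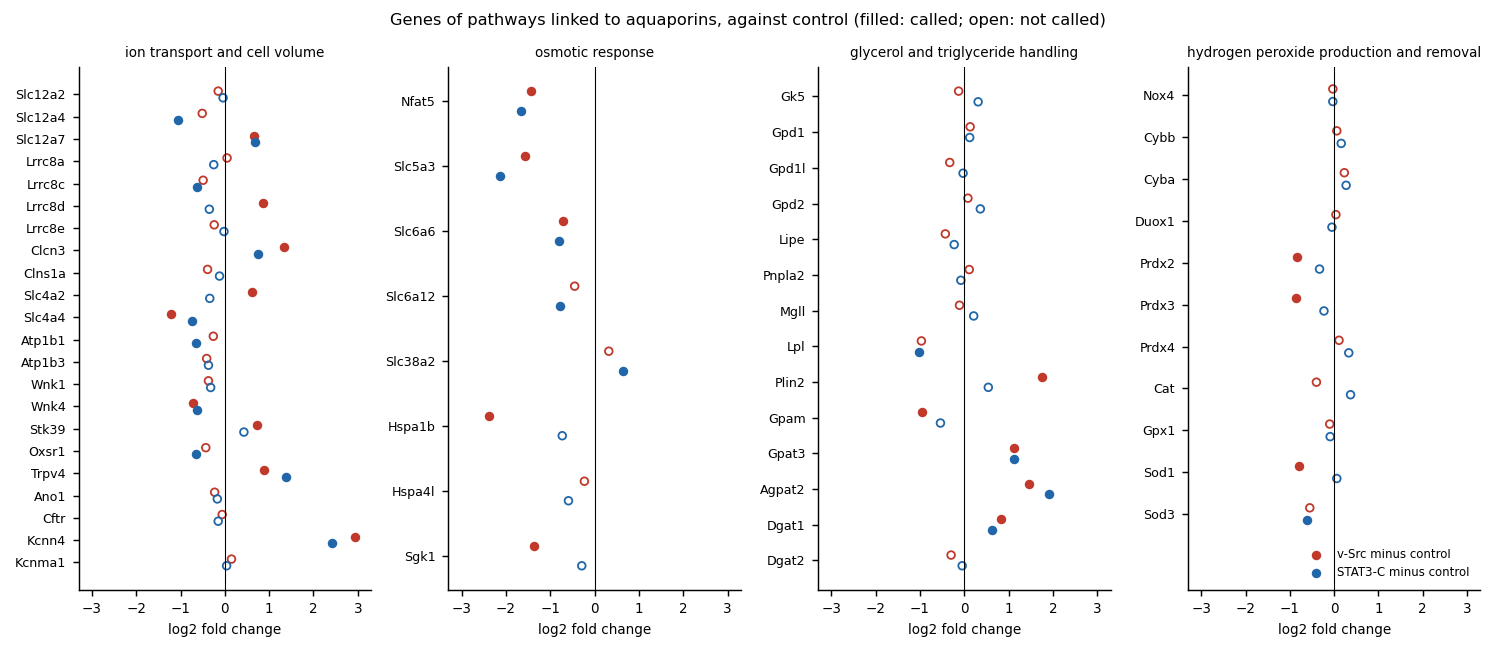
Log2 difference from control for v-Src and STAT3-C cells, 1 probeset a gene, for the measured genes of ion transport and cell volume, osmotic response, glycerol and triglyceride handling, and hydrogen peroxide production and removal, with filled points for called genes and open points for the rest. Kcnn4 lies furthest to the right, at 2.93 and 2.41, and Slc5a3 lies at -1.56 and -2.14.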

How the data were processed

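RNA of 9 arrays was analysed from the deposited table of log2 values, which the authors made with Robust Multichip Average (RMA). By the methods, RMA was run on the control arrays together with each transfected line in turn, and the source run of the deposited columns is not stated, so run and line cannot be told apart between the transfected lines. Each control array has a single deposited column, so a comparison with control may cross runs as well. Groups and array numbers came from the sample titles. The 64 control probesets were left out. Probeset genes came from the platform annotation: 34945 probesets had 1 symbol, 932 several and 9160 none, and 0 of those with several named an aquaporin. Array values carry no read depth, and 3 arrays a line limit the precision.

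The lines were compared in pairs with limma 3.58.1 (lmFit, eBayes) in R 4.3.3, in place of the study's SAM, which draws other splits of the arrays, with Benjamini-Hochberg adjustment over 45037 probesets. Scripts were tested on simulated data. Alternatives were 1 fit of all arrays, quantile or median normalization, a filter on level, fold thresholds, a trended variance, a replicate block and leaving out each array. Each list gene was read by its brightest probeset, averaged over all arrays, with the mean of its probesets as an alternative. In all, 144 of 161 list entries were measured. Named were every member probeset, the other aquaporins, the 5 genes nearest to Aqp5, up to 4 genes a list with the largest difference in each line, and 3 neighbours on each side of members with a call. Some other list genes, called by other probesets or between the transfected lines, were named after their values were seen. The members and lists were chosen with earlier results of these data known. Promoters and gene order came from RefSeq (GRCm38.p6), with motifs searched in the 250 bases before the start. Proteins were not compared here. Figures used python 3.11.15 and matplotlib 3.10.9.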

Additional observations from a re-analysis of the deposited data

Results flagged for a closer look

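When v-Src and STAT3-C cells were compared directly, Aqp5 had a log2 difference of -1.75 for v-Src minus STAT3-C (limma adjusted p = 0.000629), and all 3 v-Src arrays lay below all 3 STAT3-C arrays. Groups of 3 arrays are too small for a test of single arrays that stand apart.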

How the results depend on the processing

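Each condition is 1 line with 3 passages, and of the members only Aqp5 and Aqp1 lay above the upper quartile on all arrays of a transfected line. The Aqp5 difference between v-Src and STAT3-C cells was -1.90 to -1.59 with 1 array left out and -1.77 to -1.64 under the other alternatives, with adjusted p of 6.82e-05 to 0.0076. Against control, Aqp5 stayed at 4.53 to 4.83 in v-Src cells and 6.34 to 6.49 in STAT3-C cells with 1 array left out. The probesets called numbered 7586 for v-Src and 8223 for STAT3-C cells, each against control, and 4645 for the direct comparison. With a fold of at least 2 they numbered 3510, 3713 and 1496, and with no fold threshold 12782, 13351 and 9124. With 1 array left out they numbered 6946 to 7696, 7370 to 8467 and 3569 to 4784. Of 536 member results under an alternative, 3 lost their call, those of Aqp3 and Aqp8 in v-Src cells and of Aqp11 in STAT3-C cells at 2-fold, 6 gained one, and 0 of those called changed direction. Of 492 that were called in neither setting, 22 changed sign. When the probesets of a gene were averaged, 12 of 90 list counts moved by over 1.5 times, 5 of them of the ion transport and osmotic lists, 1 of the hydrogen peroxide list and 6 of marker lists (epithelial, alveolar and astrocyte). Same-numbered STAT3-C and control arrays had deviations from their line means correlated at -0.0926, 0.0645 and 0.0446, and differently numbered ones at -0.11 to 0.0715. No shared effect of the number was thus visible, which cannot show whether same-numbered arrays came from matched passages. With the number as a replicate block, 8411 probesets were called in STAT3-C against control, Aqp5 stayed at 6.43 and no member call changed. No block was possible with the v-Src arrays, which share only number 1.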
